A study of Mus musculus with 6 samples.

Results

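Voltage-gated potassium (Kv) channels are described here across 3 sorted subsets of cells from mouse dorsal root ganglia (DRG), where the cell bodies of the sensory neurons of trunk and limbs lie. The genes were taken by name alone, as every symbol made of Kcna, Kcnb, Kcnc, Kcnd, Kcnf, Kcng, Kcnh, Kcnq, Kcns or Kcnv and a number, which gave 40 genes of the 23029 in the deposited table of RPKM values (reads scaled by gene length in kilobases and by library size in M reads). All cells came from mice of genotype GINIP+/mcherry, so that 1 allele of the GINIP gene carries the red fluorescent protein mCherry, and they were sorted by that fluorescence and by staining with isolectin B4 (IB4). DP cells bore both signals (IB4+GINIP+) and correspond to neurons marked by the receptor Mrgprd. C-LTMR cells bore the reporter alone (IB4-GINIP+) and are C-fibre low-threshold mechanoreceptors, which respond to gentle touch. DN cells bore neither (IB4-GINIP-) and hold whatever else the dissociated ganglia contained. With 2 libraries per subset, n = 2 behind each mean ± SD. The age of the mice is not given in the labels. The labels also do not say that the 2 libraries of a subset came from separate animals, and p-values therefore rest on a spread between libraries that may be technical.

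A Kv channel opens when the membrane depolarises and lets potassium leave the cell, which ends the action potential, sets the interval to the next one and holds the resting neuron away from threshold. A channel is a tetramer of subunits of 1 family, and the families differ in the voltage at which they open and in how fast they open, close and inactivate. The Kv5, Kv6, Kv8 and Kv9 subunits (Kcnf, Kcng, Kcnv and Kcns genes) are called silent because they form no channel alone and act by joining Kv2 subunits. In DRG neurons, Kv1 and Kv4 channels are known for the subthreshold and A-type currents that delay firing, Kv2 and Kv3 for repolarisation, and Kv7 for the M-current that damps repetitive firing.

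RefSeq promoter windows on build GRCm38.p6, from 250 bases before to 50 bases after the transcript start, were at hand for 25 of the 40 genes, in 30 windows. The windows of 4 genes with a single listed start are printed because these genes stood on opposite sides of the comparison of the sorted neuron subsets: Kcnc4 and Kcnf1 were higher in DP cells, and Kcna3 and Kcnd3 were higher in C-LTMR cells. Capitals mark GGGCGG or its complement CCGCCC, the letters of a GC box. The windows lie at chr3:107458849-107459148 on the minus strand (Kcnc4), chr12:17176839-17177138 on the minus strand (Kcnf1), chr3:107035912-107036211 on the plus strand (Kcna3) and chr3:105451640-105451939 on the plus strand (Kcnd3), and each is written 5′ to 3′ along its gene.
Kcnc4: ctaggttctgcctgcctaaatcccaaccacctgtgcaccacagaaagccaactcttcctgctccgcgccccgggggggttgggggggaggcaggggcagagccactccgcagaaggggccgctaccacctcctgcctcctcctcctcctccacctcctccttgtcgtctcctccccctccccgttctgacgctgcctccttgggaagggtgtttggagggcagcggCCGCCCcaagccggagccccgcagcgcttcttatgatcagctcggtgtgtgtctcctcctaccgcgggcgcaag
Kcnf1: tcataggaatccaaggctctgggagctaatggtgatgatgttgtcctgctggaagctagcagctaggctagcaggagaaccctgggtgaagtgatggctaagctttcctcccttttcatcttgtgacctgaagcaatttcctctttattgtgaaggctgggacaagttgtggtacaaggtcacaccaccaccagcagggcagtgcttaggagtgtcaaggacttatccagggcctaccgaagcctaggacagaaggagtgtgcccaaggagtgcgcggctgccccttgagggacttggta
Kcna3: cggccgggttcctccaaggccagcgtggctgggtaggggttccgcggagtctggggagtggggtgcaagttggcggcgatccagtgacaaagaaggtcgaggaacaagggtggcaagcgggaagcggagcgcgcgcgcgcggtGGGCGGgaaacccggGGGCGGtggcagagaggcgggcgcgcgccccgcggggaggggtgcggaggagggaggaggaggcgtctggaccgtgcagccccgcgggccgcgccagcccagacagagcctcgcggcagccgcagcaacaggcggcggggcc
Kcnd3: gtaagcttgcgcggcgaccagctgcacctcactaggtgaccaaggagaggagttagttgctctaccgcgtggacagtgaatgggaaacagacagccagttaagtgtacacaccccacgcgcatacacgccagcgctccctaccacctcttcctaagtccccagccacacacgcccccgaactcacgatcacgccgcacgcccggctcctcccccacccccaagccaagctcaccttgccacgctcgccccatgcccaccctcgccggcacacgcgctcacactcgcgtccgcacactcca
The Kcna3 window held 37 CpG dinucleotides and 2 GC boxes, and that of Kcnc4 held 17 CpG and 1 GC box. The Kcnd3 window had 25 CpG and that of Kcnf1 had 3, both without these letters. GGGCGG on either strand was found in 18 of the 30 windows (60%), belonging to 17 of 25 genes, against 35.7% of all 32851 windows of the same length. TATAAA, the letters of a TATA box, was found on either strand in 0 of the 30 windows and in 13.6% of all windows. The median window of the Kv genes held 19.5 CpG dinucleotides and the median of all windows held 7. A match says only that these letters are present.

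The defining markers of DP and C-LTMR were highest in the libraries of those labels. Mrgprd stood at 220 and 277 RPKM in DP and at no more than 2.01 RPKM elsewhere, and Th, which marks C-LTMRs, stood at 1017 and 1038 RPKM in C-LTMR and at no more than 61.7 RPKM elsewhere. Markers of other neurons were present too: 6 itch-neuron markers summed to between 202 and 274 RPKM in C-LTMR, 28.8 and 31.2 in DP and 7.24 and 9.67 in DN. Mrgpra3 made up most of the C-LTMR sum, at 259 and 190 RPKM, and stood at 17.5 and 16.2 in DP and 0 and 0.12 in DN. Osmr and Hrh1 were also higher in C-LTMR than in DP, whereas Nppb, Sst and Il31ra were higher in DP. Of the 6, 2 were called higher and 3 lower in DP than in C-LTMR. The 10 peptidergic and thermosensory markers summed to between 8086 and 8946 RPKM in DN and to between 1335 and 1661 elsewhere. Calca and Tac1 made up most of the DN sum. Calcb was lowest in DN, at 282 and 233 RPKM, against 576 and 521 in DP and 343 and 353 in C-LTMR. Of the 9 tested, 1 was higher and 7 lower in DP than in DN, and 0 higher and 7 lower in C-LTMR than in DN. The part of these other neurons in any Kv difference was not tested. Depth, estimated from the size of the step that 1 read makes in the RPKM values, ranged from 32.3 to 42.1 M reads. Across genes, replicates correlated at r of 0.9859 to 0.9945, and libraries of different subsets at 0.7821 to 0.9427. DN libraries also held other cells: 18 satellite glia and Schwann cell markers summed to 9160 and 18909 RPKM there, against 1330 to 1830 in DP and 2440 to 3344 in C-LTMR. In both DP and C-LTMR cells, 16 of the 17 glial markers tested were lower than in DN. The 18 vascular and fibroblast markers summed to 666 and 1059 RPKM in DN, 32.8 and 33.5 in DP and 86.3 and 91.9 in C-LTMR, where Rgs5 alone gave 79.5 and 82.3 against 6.42 and 6.85 in DP. Of these 18, 9 were higher and 1 lower in DP than in C-LTMR. The 15 pan-sensory-neuron genes summed to 9337 and 6767 RPKM in DN and to between 10268 and 11024 elsewhere. Single genes differed from that order. Thy1 stood at 108 and 47.5 RPKM in DN and between 14.5 and 21.6 elsewhere. Eno2 stood at 182 and 120 RPKM in DN, 30.0 and 30.5 in DP and 267 and 247 in C-LTMR. Of the 15, 3 were higher and 2 lower in DP than in DN, and 4 higher and 1 lower in C-LTMR than in DN. The part of these cells in any Kv difference against DN was not tested, and in bulk libraries fewer cells of a type and less RNA per cell cannot be told apart. The 13 immune and blood markers in the table summed to 234 and 264 RPKM in DP, 64.9 and 119 in DN and 26.9 and 33.8 in C-LTMR. S100a8, S100a9, Ngp and Lyz2 made up most of the DP sum, with S100a9 alone at 102 and 115 RPKM, whereas Cd68, Aif1, Cd14 and C1qb were highest in DN and Alas2 in C-LTMR. Of the 9 tested, 6 were higher and 1 lower in DP than in C-LTMR, and 3 higher and 4 lower than in DN. Their part was not tested either.

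Summed over the 40 genes, Kv transcripts reached 187 ± 10.3 RPKM in DP (SD), 214 ± 11.7 in C-LTMR and 169 ± 24.8 in DN. Kv4 genes, which carry somatic A-type current, made up 12.21% and 11.97% of the sum in DP and 16.1% and 16.0% in C-LTMR, but 1.92% and 1.17% in DN. Kv3 genes, which serve fast repolarisation, made up 23.8% in each DN library, 10.6% and 9.38% in DP and 5.76% and 5.74% in C-LTMR. The Kv1 share varied less and was 26.1 ± 0.00137% for DP, 31.4 ± 0.746% for C-LTMR and 29.3 ± 0.0562% for DN. The silent Kv6 genes held 14.8 ± 1.23% of the DP sum, 8.80 ± 1.48% of that of C-LTMR and 4.48 ± 0.493% of that of DN. The Kv9 share was 14.7 ± 1.08% in DN, 9.88 ± 0.832% in DP and 5.89 ± 0.811% in C-LTMR. Kv8 made up 3.98 ± 0.128% of the C-LTMR sum, and 0.752 ± 0.0301% and 1.39 ± 0.0621% in DP and DN. These shares rest on the authors' gene lengths and are described without a test.

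**Figure D1:**
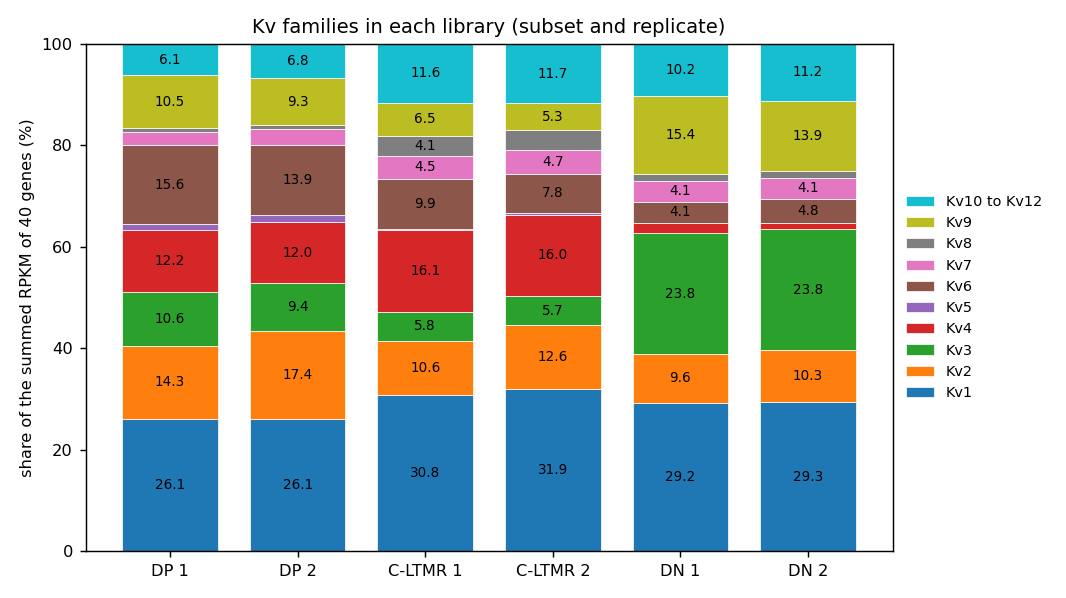
Share of the summed RPKM of all 40 Kv genes held by each family (vertical axis, percent), with 1 stacked bar per library. The 2 libraries of a subset have nearly the same makeup, Kv4 almost vanishes in DN (1.92% and 1.17%), and Kv3 is widest there (23.8% in both).

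A few genes carried a large part of each sum. In DP the order began with Kcng2 (26.4 ± 0.906 RPKM), Kcna6 (23.6 ± 0.891) and Kcnd1 (22.2 ± 0.926), together 38.7% of the sum. In C-LTMR it began with Kcnd1 (31.7 ± 1.54 RPKM), Kcna6 (21.1 ± 1.18) and Kcna2 (20.7 ± 3.20), together 34.3%. In DN it began with Kcnc4 (26.3 ± 2.61 RPKM), Kcns3 (20.3 ± 4.85) and Kcna1 (19.8 ± 3.06), together 39.3%. Kcna6 and Kcna2 in C-LTMR lay within their replicate spread of each other, as did Kcns3 and Kcna1 in DN. Levels are compared between genes only per length, and that length is uncertain: the one behind the authors' values was 2.09 times the summed exon length of the GENCODE M21 gene model for Kcna1, 0.381 times for Kcnd1 and 0.36 times for Kcnb2. With the exon length in its place for the 12 genes where both could be compared, an alternative added after the data were seen, Kcnd1 came to 12.1 RPKM in C-LTMR, against 8.45 for DP and 0.96 for DN. Kcna1 then led the order in C-LTMR (25.3 RPKM) and in DN (41.4), and Kcng2 still led in DP (27.2). In DP, Kcna1 rose from 9.17 to 19.2 RPKM and Kcnb2 fell from 12.4 to 4.47. The places of Kcnd1, Kcna1 and Kcnb2, and with them the Kv4, Kv1 and Kv2 shares, therefore depend on the length used. The log2 fold change of a single gene between libraries does so only through the added 0.1 RPKM and the filter.

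**Figure D2:**
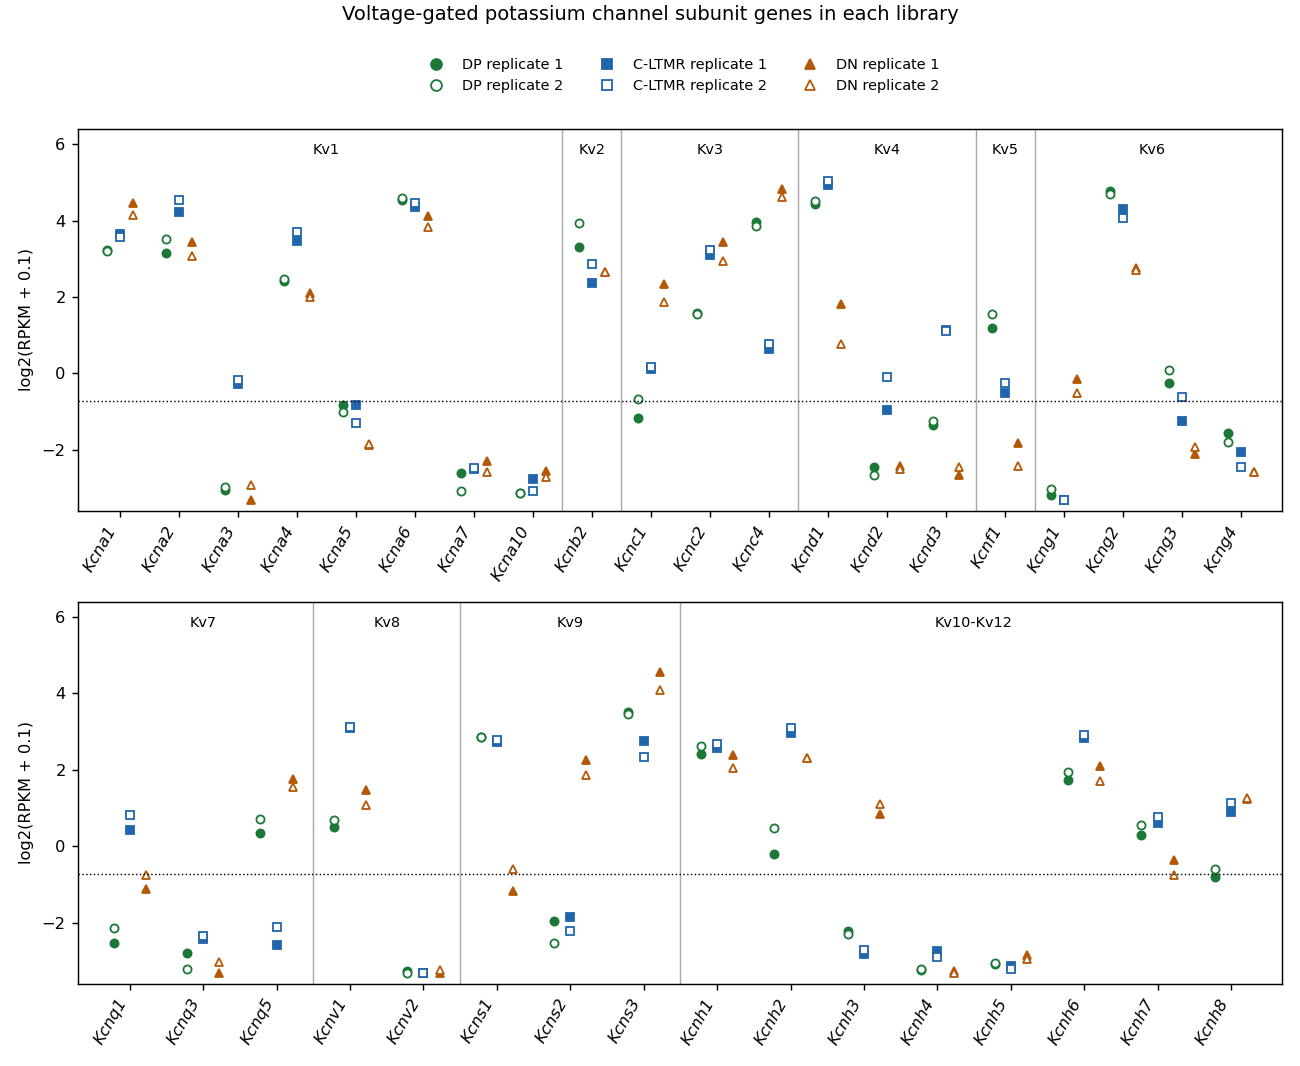
Level of 36 Kv genes in each of the 6 libraries, as log2(RPKM + 0.1), with genes grouped by family and the dotted line at 0.5 RPKM. Points of 1 subset lie close together for most genes, and 9 of them stay under the line in at least 5 of 6 libraries.

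Of the 40 genes, 30 passed a filter of 0.5 RPKM in at least 2 of 6 libraries and were tested. DP and C-LTMR differed in 15 of these 30, with 3 higher in DP (Kcnc4, Kcnf1 and Kcnq5) and 12 lower (among them Kcna2, Kcna3, Kcna4, Kcnc1, Kcnc2, Kcnd3, Kcnh2, Kcnh6, Kcnh8, Kcnq1 and Kcnv1). Genes were called from a limma fit where p, adjusted by Benjamini-Hochberg (BH), was under 0.05 and the log2 fold change, on the scale of log2(RPKM + 0.1), was 1 or more in size. By the same rule 15.2% of all 13478 genes were called, 6.6% higher and 8.62% lower. The median log2 fold change of the 30 was -0.335, against -0.049 over all genes tested, and the median size was 1.004 against 0.287. A gene that passed the filter through the subset where it is high had to differ, so these counts and medians only describe the genes that passed. Kcna3, Kcnd3 and Kcnq1 passed through C-LTMR alone, and Kcng1, Kcnh3 and Kcns2 through DN alone. With Kcna3 and Kcng1 at the bound that the floor sets, the 3 medians stayed at -0.335, 0.017 and 0.772.

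Between DP and DN, 6 genes were higher in DP (Kcnd1, Kcnd3, Kcnf1, Kcng2, Kcng3 and Kcns1) and 10 were lower (Kcna1, Kcnc1, Kcnc2, Kcng1, Kcnh2, Kcnh3, Kcnh8, Kcnq1, Kcnq5 and Kcns2). Over all genes 32.4% were called, 7.92% higher and 24.4% lower, with a median log2 fold change of -0.167 beside 0.017 for the 30 genes. Between C-LTMR and DN, 13 genes were higher in C-LTMR (among them Kcna2, Kcna3, Kcna4, Kcnd1, Kcnd3, Kcnf1, Kcng2, Kcng3, Kcnh7, Kcnq1, Kcns1 and Kcnv1) and 7 were lower (Kcnc1, Kcnc4, Kcng1, Kcnh3, Kcnq5, Kcns2 and Kcns3). Here 30.9% of all genes were called, 8.67% higher and 22.3% lower, with a median of -0.064 beside 0.772 for the 30 genes. The 3 comparisons share their libraries pairwise, so a gene that stands out in 1 subset is counted in 2 of them. In all, 25 genes were called in at least 1 comparison, and 5 in none, Kcna6, Kcnb2 and Kcnh1 among them.

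**Figure D3:**
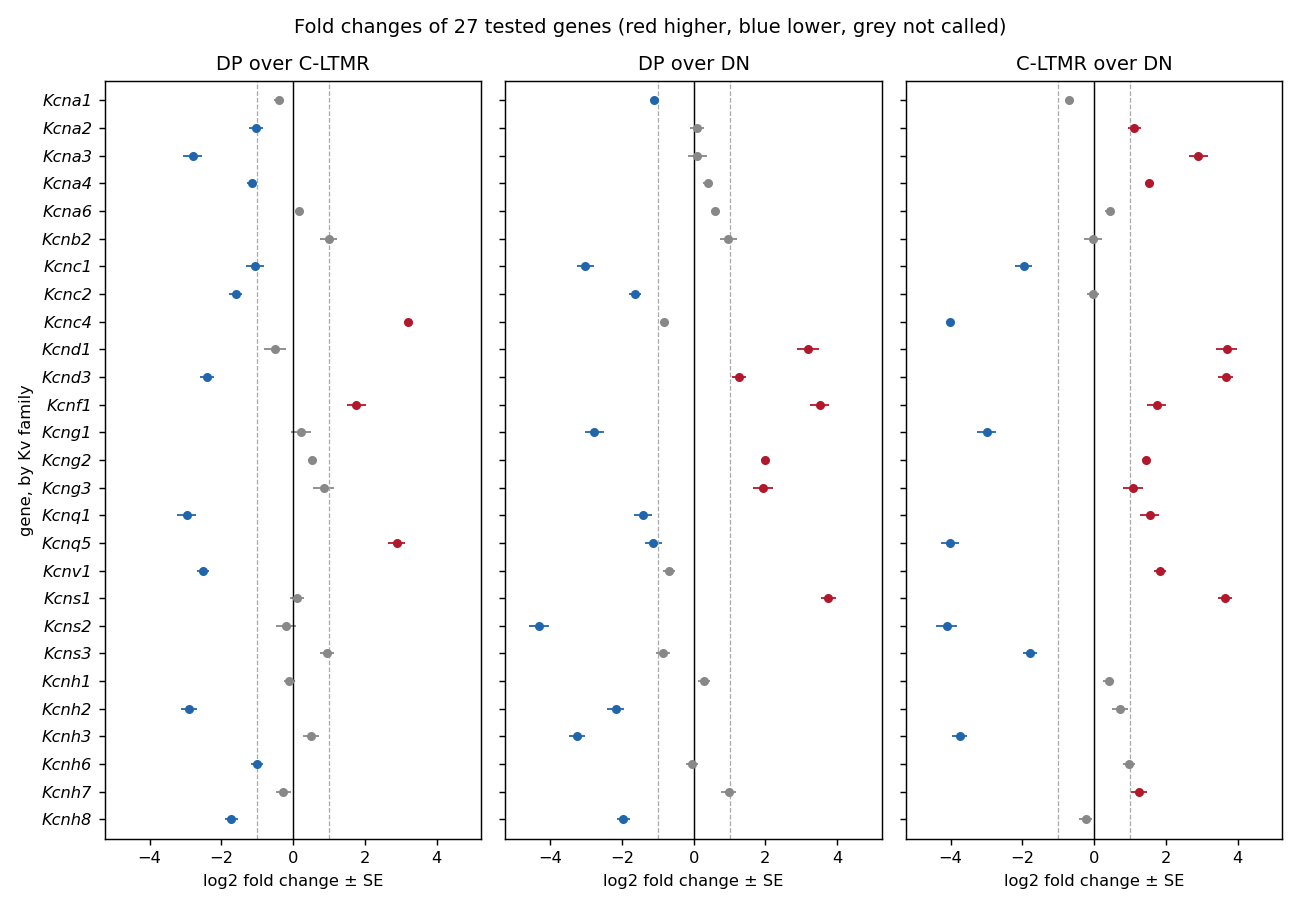
Log2 fold change of 27 tested Kv genes in the 3 comparisons, on the scale of log2(RPKM + 0.1), with bars of ± 1 SE from the limma fit; red is called higher, blue called lower and grey not called, and dashed lines mark a log2 fold change of 1 in either direction. Kcna3, Kcnh2, Kcnq1 and Kcnv1 lie left of the line for DP over C-LTMR, and Kcnc4 and Kcnq5 lie right of it there and left of it for C-LTMR over DN. The place of Kcna3 rests on the added 0.1 RPKM, as its DP and DN values were at the floor.

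Kv1 genes (Kcna) encode low-threshold channels of axon and soma, and 5 of the 8 were tested, of which Kcna2, Kcna3 and Kcna4 were called lower in DP than in C-LTMR. Kcna2 encodes Kv1.2, a subunit of the delayed, low-threshold current. It stood at 8.84 and 11.4 RPKM in DP, 18.5 and 23.0 in C-LTMR and 10.7 and 8.28 in DN (Entrez 16490, chr3:107101567-107115005, GRCm38). Kcna4 encodes Kv1.4, an inactivating A-type subunit found in small sensory neurons. Its levels were 5.197 and 5.44 RPKM in DP, 11.01 and 13.0 in C-LTMR and 4.22 and 3.86 in DN (Entrez 16492, chr2:107290589-107298504). For both genes the C-LTMR libraries lay above the other 4 without overlap. Kcna4 was lower in DP than in C-LTMR (log2 fold change -1.15 with an SE of 0.127, limma, BH-adjusted p = 0.00075). That call ended with quantile normalization, with scaling to the pan-sensory-neuron genes and with limma's treat test. Kcna2 was lower as well, at -1.03 ± 0.187 (± SE here and in later fold changes, limma, BH-adjusted p = 0.00661), a call that ended without DP replicate 1 (-0.85) or without C-LTMR replicate 2 (-0.88). It held in only 10 of 18 alternatives. The others that ended it were the TMM-normalized table, a pseudocount of 1, quantile normalization and limma's treat test. Scaling to the pan-sensory-neuron genes or to the median of all genes ended it too. Over DN, Kcna4 rose by 1.54 and Kcna2 by 1.12 in C-LTMR (limma, BH-adjusted p = 8.66e-05 and 0.00212), and the call of Kcna2 ended without C-LTMR replicate 2 (0.96) or DN replicate 2 (0.94). The same call also ended with scaling to the pan-sensory-neuron genes and with limma's treat test.

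Kcna3 encodes Kv1.3, a channel best known from lymphocytes. It stood at 0.724 and 0.789 RPKM in C-LTMR, 0.0196 and 0.0265 in DP and 0 and 0.0315 in DN (Entrez 16491, chr3:107036162-107038129). DP and DN were both at the floor that 3 reads set, so its fitted fold changes are not given. An estimated 96 reads came from C-LTMR, against 3 from DP and 2 from DN. These are rounded sums of estimates that were not whole reads. The ratio per read of depth was 38.7 over DP (binomial 95% interval 12.8 to 191) and 51.4 over DN (13.9 to 431). These intervals are approximate and cover counting error only. Both differences passed limma's test (BH-adjusted p = 0.000383 against DP and 0.000132 against DN). Kcna3 passed the filter through C-LTMR alone, so that outcome was all but fixed in advance and lends no support. Both calls ended with a pseudocount of 1.

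Kcna1 encodes Kv1.1, the usual partner of Kv1.2 beside the nodes of myelinated axons. Unlike Kcna2, it was highest in DN, with 9.24 and 9.11 RPKM in DP, 12.4 and 11.8 in C-LTMR and 22.0 and 17.7 in DN (Entrez 16485, chr6:126636463-126645801). The 3 subsets did not overlap, and DP was lower than DN, at a log2 fold change of -1.09 ± 0.124 (limma, BH-adjusted p = 0.000355), a call that ended without DN replicate 1 (-0.94). This call also ended with quantile normalization, with scaling to the median of all genes and with limma's treat test. Kcna6, the gene of the delayed rectifier subunit Kv1.6, stood at 23.0 and 24.2 RPKM in DP, 20.2 and 21.9 in C-LTMR and 17.2 and 14.2 in DN (Entrez 16494, chr6:126708329-126740674). None of its 3 log2 fold changes reached 1 (0.16, 0.59 and 0.43). Neighbours on a chromosome differed in order: Kcna3, Kcna2, Kcna10 and, farther on, Kcnc4 lie on chromosome 3 between positions 107036162 and 107458898, with Kcna3 and Kcna2 highest in C-LTMR and Kcnc4 lowest there. On chromosome 6, Kcna5 reached at most 0.466 RPKM beside Kcna1 and Kcna6.

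Kv2 channels carry much of the delayed rectifier current of neuronal somata. Kcnb2 (Kv2.2) stood at 9.77 and 15.1 RPKM in DP, 5.09 and 7.22 in C-LTMR and 6.17 and 6.21 in DN (Entrez 98741, chr1:15312452-15714214). The DP libraries were highest, and those of C-LTMR and DN overlapped. Kcnb2 was not called in any comparison. It lay at the threshold for DP over C-LTMR, with a log2 fold change of 0.99 (limma, BH-adjusted p = 0.021), and was called without DP replicate 1 (1.30) or C-LTMR replicate 2 (1.24), and for DP over DN, with 0.96, called without DP replicate 1 (1.27).

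Of the 8 silent genes tested, which join Kv2 channels, 2 were called between DP and C-LTMR (Kcnf1 and Kcnv1), against 15.2% of all genes. Between DP and DN 6 were called, all but Kcns3 and Kcnv1, and between C-LTMR and DN all 8, where 32.4% and 30.9% of all genes were. Kcnf1 (Kv5.1) stood at 2.20 and 2.84 RPKM in DP, 0.598 and 0.737 in C-LTMR and 0.182 and 0.0841 in DN (Entrez 382571, chr12:17172100-17176888). The 3 subsets did not overlap, and DP was higher than C-LTMR by 1.76 ± 0.272 (limma, BH-adjusted p = 0.00332) and higher than DN by 3.51 (limma, BH-adjusted p = 6.87e-05). Kcng2 (Kv6.2) stood at 27.0 and 25.8 RPKM in DP, 19.8 and 16.6 in C-LTMR and 6.69 and 6.47 in DN (Entrez 240444, chr18:80294544-80364254). Both sorted neuron subsets were above DN, by 1.99 in DP and 1.45 in C-LTMR (limma, BH-adjusted p = 2.14e-05 and 6.81e-05). Its difference between DP and C-LTMR, of 0.54, did not reach the fold threshold. In GENCODE M21 the exons of Kcng2 overlap those of D330025C20Rik on the opposite strand. The same holds for Kcna6 with Gm26673, Kcnq5 with Gm26580 and Kcnh7 with Gca. Without strand, reads from such overlaps cannot be assigned to 1 gene, and their part was not tested.

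Kcng3 (Kv6.3) showed the same order at a lower level, with 0.737 and 0.956 RPKM in DP, 0.319 and 0.551 in C-LTMR and 0.130 and 0.162 in DN (Entrez 225030, chr17:83585957-83631895). It was higher than DN by 1.94 in DP (limma, BH-adjusted p = 0.00109) and by 1.09 in C-LTMR (limma, BH-adjusted p = 0.0144), the latter not called without C-LTMR replicate 2 (0.77) or DN replicate 1 (0.997). The latter call also ended with a pseudocount of 1, with scaling to the pan-sensory-neuron genes and with limma's treat test. DP over C-LTMR, at 0.85, was called only without C-LTMR replicate 2 (1.17) among the libraries left out. Kcng1 (Kv6.1) ran the other way, with 0.807 and 0.597 RPKM in DN, 0.0103 and 0.0225 in DP and 0 in both C-LTMR libraries (Entrez 241794, chr2:168261698-168269331). Against the floor of 3 reads per library it was at least 31.4-fold higher in DN than in C-LTMR. The estimated 211 reads in DN against 5 in DP, again rounded sums, gave a ratio of 47.6 (approximate binomial 95% interval 20.1 to 148). Both differences passed the test (limma, BH-adjusted p = 0.000122 and 0.00017). Kcng1 passed the filter through DN alone, so that outcome too was all but fixed in advance. Both calls ended with a pseudocount of 1.

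Kcnv1 (Kv8.1) was highest in C-LTMR, at 8.38 and 8.65 RPKM there, 1.31 and 1.499 in DP and 2.67 and 2.02 in DN (Entrez 67498, chr15:45106284-45114934). C-LTMR lay above every other library. DP was lower than C-LTMR, at a log2 fold change of -2.52 ± 0.169 (limma, BH-adjusted p = 0.00011), and C-LTMR was higher than DN by 1.83 (limma, BH-adjusted p = 0.000143).

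The Kv9 genes divided the subsets in both directions. Kcns1 (Kv9.1), a subunit known from sensory neurons, stood at 7.22 and 7.11 RPKM in DP, 6.54 and 6.73 in C-LTMR and 0.341 and 0.560 in DN (Entrez 16538, chr2:164163619-164171113). Its mean was 15.9-fold higher in DP and 14.7-fold higher in C-LTMR than in DN (log2 fold changes 3.75 and 3.64, limma, BH-adjusted p = 1.85e-05 and 1.86e-05). Kcns2 (Kv9.2) had the opposite order, at 4.65 and 3.56 RPKM in DN, 0.158 and 0.0717 in DP and 0.174 and 0.113 in C-LTMR (Entrez 16539, chr15:34837381-34842337). The mean in DN was 35.8-fold that in DP and 28.6-fold that in C-LTMR, and the log2 fold changes of -4.31 and -4.11 against DN passed the test (limma, BH-adjusted p = 3.74e-05 and 4.37e-05). Kcns2 passed the filter through DN alone, so that outcome was all but fixed in advance and lends no support.

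Kcns3 (Kv9.3) stood at 11.4 and 10.8 RPKM in DP, 6.59 and 4.98 in C-LTMR and 23.7 and 16.9 in DN (Entrez 238076, chr12:11090202-11150842). All 3 subsets were apart. C-LTMR was lower than DN, at a log2 fold change of -1.79 (limma, BH-adjusted p = 0.000305). DP lay between them, with log2 fold changes of 0.94 over C-LTMR and -0.84 over DN that missed the fold threshold (limma, BH-adjusted p = 0.0115 and 0.00885), and they reached it without C-LTMR replicate 1 (1.14) and without DN replicate 2 (-1.09).

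Kv3 channels open only near the peak of the action potential and close fast. Kcnc4 encodes Kv3.4, the inactivating Kv3 subunit known from nociceptors. It stood at 15.4 and 14.3 RPKM in DP, 1.46 and 1.60 in C-LTMR and 28.1 and 24.4 in DN (Entrez 99738, chr3:107438303-107458898). The 2 C-LTMR libraries were far below the other 4. The mean in DP was 9.72-fold that in C-LTMR (log2 fold change 3.20 ± 0.12, limma, BH-adjusted p = 2.87e-05), and that in DN was 17.2-fold (-4.02 for C-LTMR against DN, limma, BH-adjusted p = 3.07e-06). DP and DN, at -0.82, differed by less than the fold threshold.

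Kcnc2 and Kcnc1 had another order, with DP lowest. Kcnc2 (Kv3.2) stood at 2.88 and 2.81 RPKM in DP, 8.42 and 9.36 in C-LTMR and 10.8 and 7.61 in DN (Entrez 268345, chr10:112271123-112466304), so that C-LTMR and DN overlapped and DP lay below both. DP was lower than C-LTMR and DN, with log2 fold changes of -1.61 and -1.63 (limma, BH-adjusted p = 0.000732 and 0.000274). Kcnc1 (Kv3.1), known from fast-spiking neurons, stood at 0.345 and 0.524 RPKM in DP, 0.977 and 1.03 in C-LTMR and 4.94 and 3.55 in DN (Entrez 16502, chr7:46396468-46438704). The 3 subsets did not overlap, and DN was above DP and C-LTMR (log2 fold changes -3.02 and -1.96 against DN, limma, BH-adjusted p = 7.59e-05 and 0.000499). Its call for DP against C-LTMR (-1.06 ± 0.239, limma, BH-adjusted p = 0.0159) ended without DP replicate 1 (-0.82), C-LTMR replicate 1 (-1.10) or C-LTMR replicate 2 (-1.03). Without either C-LTMR replicate the adjusted p, not the fold change, missed its threshold. The call held in only 9 of 17 alternatives. It also ended with a pseudocount of 1, quantile normalization and limma's treat test. Scaling to the pan-sensory-neuron genes or to the median of all genes ended it too.

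Kv4 channels carry the subthreshold A-type current of the soma. Kcnd1 (Kv4.1) stood at 21.5 and 22.8 RPKM in DP, 30.6 and 32.8 in C-LTMR and 3.43 and 1.61 in DN (Entrez 16506, chrX:7823843-7836503). Its mean was 8.80-fold higher in DP and 12.6-fold higher in C-LTMR than in DN (log2 fold changes 3.18 ± 0.302 and 3.69 ± 0.302, limma, BH-adjusted p = 0.000163 and 8.55e-05). The DP libraries lay below those of C-LTMR, but this difference of -0.51 did not pass the test (limma, BH-adjusted p = 0.252). Kcnd3 (Kv4.3) stood at 0.293 and 0.323 RPKM in DP, 2.08 and 2.05 in C-LTMR and 0.0589 and 0.0828 in DN (Entrez 56543, chr3:105452330-105669209). C-LTMR was far above the rest: DP was lower, at -2.41 ± 0.202 (limma, BH-adjusted p = 0.000248), and C-LTMR was 3.66 above DN (limma, BH-adjusted p = 1.79e-05). Kcnd3 passed the filter through C-LTMR alone, so both outcomes were all but fixed in advance and lend no support. DP was also above DN by 1.26 (limma, BH-adjusted p = 0.00169). Kcnd3 overlaps 1700095B22Rik, which stood at 1.01 and 1.17 RPKM in C-LTMR, 0.286 and 0.670 in DP and 0.166 and 0.268 in DN. That is the same order of subsets as for Kcnd3. In GENCODE M21 the exons of Kcnd3 also overlap those of Kcnd3os on the opposite strand. The sources used here do not say whether counting used strand, and the part of shared reads was not tested. Kcnd2 (Kv4.2) reached 0.417 and 0.830 RPKM in C-LTMR and at most 0.0846 RPKM elsewhere, which left it under the filter and untested.

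Kv4 channels take their gating and surface level from cytosolic KChIP proteins (Kcnip genes) and from the membrane proteins Dpp6 and Dpp10. Kcnip2 stood at 83.2 and 84.9 RPKM in DP, 65.6 and 64.2 in C-LTMR and 0.345 and 0.651 in DN. Kcnip4 stood at 234 and 219 RPKM in DP, 145 and 136 in C-LTMR and 10.6 and 8.33 in DN. Dpp10 stood at 34.2 and 33.2 RPKM in DP, 82.3 and 84.7 in C-LTMR and 1.03 and 0.904 in DN. All 3 were above DN in both sorted neuron subsets without overlap, with log2 fold changes in DP of 7.19, 4.57 and 4.99 and in C-LTMR of 6.81, 3.88 and 6.30 (limma, BH-adjusted p between 1.07e-06 and 3.97e-06). Dpp6 also rose over DN, by 1.29 in DP and 1.59 in C-LTMR (limma, BH-adjusted p = 0.000229 and 9.15e-05). Kcnip1 ran the other way, at 4.24 and 4.86 RPKM in DP, 5.80 and 6.10 in C-LTMR and 18.8 and 15.1 in DN, and was lower than DN in both (-1.87 and -1.49, limma, BH-adjusted p = 6.38e-05 and 0.000164). Kcnip3 was more even, from 18.5 to 34.1 RPKM, and was not called.

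**Figure D4:**
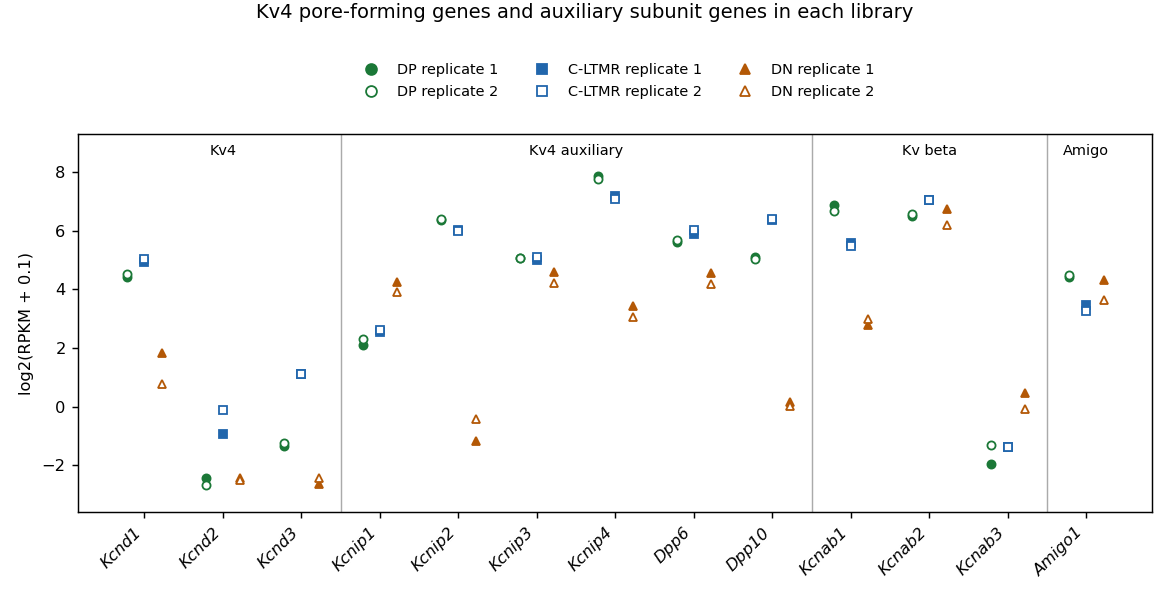
Level in each library, as log2(RPKM + 0.1), of the Kv4 genes, of the KChIP genes Kcnip1 to Kcnip4, of Dpp6 and Dpp10, of the Kv1 beta subunit genes Kcnab1 to Kcnab3 and of Amigo1. Kcnd1, Kcnip2, Kcnip4, Dpp10 and Kcnab1 lie lower in both DN libraries than in all others, and Kcnip1 lies higher.

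Across all auxiliary subunits, 13 of 17 listed genes were tested. Against C-LTMR, 2 were higher in DP and 1 was lower, where 15.2% of all genes were called. The higher ones were Kcnab1 (1.24), which encodes a Kv1 beta subunit, and Amigo1 (1.09), which encodes a membrane partner of Kv2 channels, and the lower one was Dpp10 (-1.31) (limma, BH-adjusted p = 0.000357, 0.00999 and 0.000168). Kcnab1 stood at 118 and 101 RPKM in DP, 48.0 and 44.3 in C-LTMR and 6.83 and 7.82 in DN, so all 3 subsets were apart. Amigo1 stood at 21.2 and 22.3 RPKM in DP, 10.96 and 9.45 in C-LTMR and 20.1 and 12.4 in DN, and its call ended without DP replicate 2 or C-LTMR replicate 2 (0.98 in the latter). Against DN, 5 auxiliary genes were higher and 4 lower in DP, and the counts were 5 and 4 in C-LTMR, where 32.4% and 30.9% of all genes were called. The median log2 fold change of the 13 was 0.009, 0.51 and 0.633 in the comparisons of DP with C-LTMR, DP with DN and C-LTMR with DN, beside -0.049, -0.167 and -0.064 over all genes tested.

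The second list held genes that anchor or cluster Kv channels along the axon, of which 16 of 18 were tested. In DP against C-LTMR, 1 was higher and 5 were lower, where 15.2% of all genes were called. Lgi4, a secreted protein of myelinating glia, was higher by 2.37, and Nfasc (-2.14), Lgi2 (-2.19), Cntn1 (-1.12), Cntnap1 (-1.01) and Dlg2 (-1.15) were lower (limma, BH-adjusted p between 0.000432 and 0.0262). Cntn1 and Cntnap1 encode adhesion proteins at the borders of the node of Ranvier, Nfasc a neurofascin of the node and axon initial segment, and Dlg2 a scaffold protein. Cntn1 stood at 9.12 and 13.5 RPKM in DP, 22.9 and 25.7 in C-LTMR and 9.02 and 8.38 in DN. Cntnap1 stood at 0.637 and 0.782 RPKM in DP, 1.60 and 1.45 in C-LTMR and 1.74 and 1.43 in DN. Lgi2 stood at 0.553 and 0.521 RPKM in DP, 3.20 and 2.46 in C-LTMR and 0.439 and 0.577 in DN. Without DP replicate 1 the calls of Cntn1 (-0.84), Cntnap1 (-0.88) and Dlg2 (-0.95) ended, and that of Dlg2 ended without any 1 of the 4 libraries compared. Against DN, 3 of the list were higher and 5 lower in DP, and 6 were higher and 2 lower in C-LTMR, where 32.4% and 30.9% of all genes were called. The median log2 fold changes were -0.424, 0.216 and 0.332 in the same order of comparisons, beside -0.049, -0.167 and -0.064 over all genes tested.

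Kv7 genes encode the subunits of M-channels, except Kcnq1, whose channel is known from heart and epithelia. Kcnq5 (Kv7.5) stood at 1.17 and 1.55 RPKM in DP, 0.0669 and 0.129 in C-LTMR and 3.31 and 2.84 in DN (Entrez 226922, chr1:21398403-21961942). C-LTMR was lowest, with the mean in DP 13.9-fold higher (log2 fold change 2.89 ± 0.239, limma, BH-adjusted p = 0.000234). C-LTMR was lower than DN, at -4.02 (limma, BH-adjusted p = 2.4e-05), and so was DP, at -1.13 (limma, BH-adjusted p = 0.00586), where the second call ended without DP replicate 1 (-0.94). The second call also ended with a pseudocount of 1, quantile normalization, scaling to the median of all genes and limma's treat test. Kcnq1 (Kv7.1) stood at 0.0719 and 0.126 RPKM in DP, 1.25 and 1.65 in C-LTMR and 0.361 and 0.495 in DN (Entrez 16535, chr7:143107254-143427042). The mean in C-LTMR was 14.7-fold that in DP, and all 3 of its differences passed the test (-2.96 for DP over C-LTMR, -1.41 for DP over DN and 1.55 for C-LTMR over DN by limma, BH-adjusted p = 0.000307, 0.00332 and 0.00225). Kcnq1 passed the filter through C-LTMR alone, so its differences from C-LTMR were all but fixed in advance and lend no support. The antisense gene within it, Kcnq1ot1, stood between 0.0416 and 0.0702 RPKM in all libraries. Kcnq3, an M-channel gene, stayed at or under 0.0968 RPKM.

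The Kcnh genes encode the Kv10 (eag), Kv11 (erg) and Kv12 (elk) channels, of which erg currents are known for slow control of excitability. Kcnh2 (Kv11.1) stood at 0.766 and 1.29 RPKM in DP, 7.66 and 8.51 in C-LTMR and 4.89 and 4.84 in DN (Entrez 16511, chr5:24319589-24351604). DP was below every other library, 7.86-fold under C-LTMR by means (log2 fold change -2.90 ± 0.226, limma, BH-adjusted p = 0.00019) and also lower than DN (-2.18, limma, BH-adjusted p = 0.000234). Kcnh6 (Kv11.2) stood at 3.25 and 3.74 RPKM in DP, 6.98 and 7.36 in C-LTMR and 4.19 and 3.15 in DN (Entrez 192775, chr11:106008203-106034064). DP and DN overlapped. DP was lower than C-LTMR, at a log2 fold change of -1.02 (limma, BH-adjusted p = 0.0043), not called without DP replicate 1 (-0.92) or C-LTMR replicate 2 (-0.98). This call held in only 10 of 17 alternatives. It also ended with a pseudocount of 1, quantile normalization and limma's treat test. Scaling to the pan-sensory-neuron genes or to the median of all genes ended it too. C-LTMR over DN was 0.96, called without C-LTMR replicate 1 (1.0007) or DN replicate 1 (1.16).

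Kcnh7 (Kv11.3) stood at 1.12 and 1.37 RPKM in DP, 1.43 and 1.60 in C-LTMR and 0.677 and 0.492 in DN (Entrez 170738, chr2:62702946-63184287). DN was lowest, and the gene was called for C-LTMR against DN (1.25, limma, BH-adjusted p = 0.00219). That call ended with a pseudocount of 1, with scaling to the pan-sensory-neuron genes and with limma's treat test. For DP over DN, at 0.98, the gene was called without DP replicate 1 (1.11) or DN replicate 1 (1.17). Kcnh8 (Kv12.1) stood at 0.472 and 0.560 RPKM in DP, 1.77 and 2.11 in C-LTMR and 2.27 and 2.31 in DN (Entrez 211468, chr17:52602709-52979194). DP was lowest and was lower than both C-LTMR (-1.72) and DN (-1.96) (limma, BH-adjusted p = 0.000503 and 0.000117).

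Kcnh3 (Kv12.2) stood at 1.71 and 2.05 RPKM in DN, 0.113 and 0.102 in DP and 0.0408 and 0.0519 in C-LTMR (Entrez 16512, chr15:99224976-99242817). The mean in DN was 17.5-fold that in DP and 40.5-fold that in C-LTMR (-3.25 and -3.75 against DN, limma, BH-adjusted p = 4.15e-05 and 2.34e-05). Kcnh3 passed the filter through DN alone, so that outcome was all but fixed in advance and lends no support. Its exons overlap those of Mcrs1 on the opposite strand, which stood between 14.5 and 19.9 RPKM in all libraries, so that without strand the reads of the pair cannot be told apart. Kcnh1 (Kv10.1) was even, at 5.24 and 6.02 RPKM in DP, 5.90 and 6.27 in C-LTMR and 5.18 and 4.04 in DN (Entrez 16510, chr1:192190872-192510158), and it was not called.

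The split into higher and lower calls depended on how libraries were scaled. For DP against C-LTMR, 3 higher and 12 lower became 5 and 7 with quantile normalization, 6 and 7 when libraries were scaled to the median of the pan-sensory-neuron genes, and 5 and 8 when scaled to the median of all genes. For DP against DN, 6 and 10 became 9 and 7 with quantile normalization and 9 and 8 with the median of all genes. For C-LTMR against DN, 13 and 7 became 9 and 8 with the pan-sensory-neuron genes. These scalings moved the median of all genes, with pan-sensory-neuron genes to 0.328 for DP over C-LTMR and -0.455 for C-LTMR over DN, with quantile normalization to 0.149 for DP over DN and 0.159 for C-LTMR over DN, and with the median of all genes to 0.073, 0.176 and 0.157 for the 3 comparisons in the order above. Of the 51 calls, 28 held in all alternatives tried for the gene. For DP against C-LTMR these were 6 of 15 (Kcnc4, Kcnq5, Kcnd3, Kcnh2, Kcnq1 and Kcnv1). For DP against DN they were 10 of 16 (Kcnc1, Kcnc2, Kcnd1, Kcnf1, Kcng2, Kcnh2, Kcnh3, Kcnh8, Kcns1 and Kcns2). For C-LTMR against DN they were 12 of 20 (Kcna4, Kcnc1, Kcnc4, Kcnd1, Kcnd3, Kcng2, Kcnh3, Kcnq5, Kcns1, Kcns2, Kcns3 and Kcnv1). Among these, Kcnd3 and Kcnq1 passed the filter through C-LTMR alone, and Kcnh3 and Kcns2 through DN alone. Their place in these lists was therefore all but fixed by the filter and lends no support. No called value changed sign.

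The filter left out 10 genes, among them Kcna5, Kcna7, Kcna10, Kcnd2, Kcng4, Kcnh4, Kcnh5, Kcnq3 and Kcnv2. Apart from Kcnd2, the highest single value of each of these was 0.466 RPKM for Kcna5, 0.237 for Kcng4, 0.104 for Kcna7, 0.0968 for Kcnq3, 0.0702 for Kcna10, 0.0497 for Kcnh4, 0.0379 for Kcnh5 and 0.00610 for Kcnv2. At such levels a difference between subsets was not tested.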

How the data were processed

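RNA of 6 libraries of sorted mouse DRG cells was used, 2 each of DP, C-LTMR and DN. Sorting was into lysis buffer, and TruSeq RNA libraries for an Illumina HiSeq were made from RNA amplified from 50 ng, per the labels' protocols. CASAVA 1.8.2, edgeR 2.6.2 and GRCm38 (mm10) are named in the submitters' processing notes. The aligner, its settings, the annotation and the use of strand were not given in the sources used here. As whole-series tables, the authors deposited RPKM for 23029 genes and, for 6620 genes, a TMM-normalized signal, which is the same data rescaled per library and is not whole reads. The RPKM table was analysed because the second table holds only 15 of the 40 genes. Whole reads could not be recovered (with gene lengths from GENCODE M21, 35.6% to 37.6% of low values came within 0.05 of whole reads, where chance gives 10%), so no count model was fitted.

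Genes with RPKM of at least 0.5 in at least 2 libraries (13478) were tested on log2(RPKM + 0.1), which understates changes of low genes. One limma 3.58.1 fit (R 4.3.3, trended variance, 3 residual and 3.65 prior degrees of freedom) held all 6 libraries, with Benjamini-Hochberg adjustment over all genes tested and calls at an adjusted p under 0.05 with a log2 fold change of 1 or more in size. The procedure was tested on simulated data. Floors of 3 reads and intervals cover counting error only, since reads carry no molecular identifiers. The intervals treat rounded read estimates as whole reads, so they are approximate. Values are given for each Kv gene called in any comparison or reaching a mean of 5 RPKM in a subset, and for partner genes called between DP and C-LTMR. Kcnip1 to Kcnip4 and Dpp6 are given beyond that rule, chosen after their values were seen. A few Kv genes are counted in sums and calls, but their own results are not reported here. The Kv genes, partner lists and marker lists were chosen with earlier results of these data known. Alternatives changed the pseudocount, filter, table, scaling, variance model, fold threshold, replicate block and libraries. Python 3.11.15 with numpy 2.4.6, pandas 2.3.3 and matplotlib 3.10.9 served for the rest.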

Additional observations from a re-analysis of the deposited data

How the results depend on the processing

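Of 2928 values recomputed for single genes under the alternatives, 2740 kept their direction and side of the threshold, 132 lost the call, 55 gained one and 1 reversed. The reversal was that of Dlg2 for DP over DN, which came to 0.29 with quantile normalization; the cause was not tested. Kv genes higher in DP than in C-LTMR numbered 5 with quantile normalization, 6 with scaling to pan-sensory-neuron genes and 5 with the median of all genes, and 3 to 5 when 1 library was left out. Those lower numbered 6 with a pseudocount of 1, 7 with quantile normalization, 7 with pan-sensory-neuron genes, 6 with limma's treat test and 8 to 12 without 1 library. For DP against DN, 6 to 8 were higher and 9 to 11 lower without 1 library. For C-LTMR against DN, 8 were higher with a pseudocount of 1 and 7 with treat, and 11 to 14 higher and 7 lower without 1 library. In the TMM-normalized table, which holds 15 of the genes, 5 were lower in DP than in C-LTMR, 2 were higher and 3 lower in DP than in DN, and 6 were higher and 2 lower in C-LTMR than in DN. With the replicate block the counts stayed at 3 and 12, 6 and 10, and 13 and 7, and it changed the call of 0 of 81 gene values; deviations of same-numbered libraries correlated at 0.377, 0.097 and 0.279, and the labels tie the numbers to nothing shared.

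Of the 29 auxiliary and clustering genes, 3 higher and 6 lower in DP than in C-LTMR became 5 higher and 2 lower with pan-sensory-neuron genes, 1 higher and 2 lower with treat, 2 lower in the TMM-normalized table, and 2 to 3 higher and 3 to 6 lower without 1 library, where 3 lower was the count without DP replicate 1. For DP against DN, 8 higher became 4 with treat, and 9 lower became 4 with a pseudocount of 1, 2 in the TMM-normalized table, 3 with quantile normalization and 3 with treat; without 1 library they ranged from 7 to 10 and from 7 to 10. For C-LTMR against DN, 6 lower became 3 with a pseudocount of 1, 2 in the TMM-normalized table, 3 with quantile normalization and 3 with treat; without 1 library 10 to 12 were higher and 6 to 7 lower. Counting only the 30 genes that passed the filter, the Kv1 share became 25.9% in DP and 29.2% in DN, Kv3 5.79% in C-LTMR and 23.9% in DN, Kv4 15.9% in C-LTMR, Kv7 4.05% in DN and Kv10 to Kv12 11.7% in C-LTMR.

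Depth limits the genes under 0.1 RPKM, where a library holds a few reads per gene, and 2 libraries per subset limit the error of every fold change.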
